A study of Rattus norvegicus with 8 samples.

Results

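Expression of 9 genes of extracellular proteolysis was followed in the hippocampus of rats that had practised intracranial self-stimulation (ICSS), in which the animal triggers trains of current through its own electrode in the lateral hypothalamus, a site where current is rewarding. They are Plat and Plau (the plasminogen activators), Plaur (the receptor of the urokinase-type activator), Serpinb2 (an inhibitor of plasminogen activators), Timp1, Timp2 and Timp3 (inhibitors of metalloproteinases), Mmp9 (a gelatinase) and Adamts1 (a proteoglycan-cleaving metalloproteinase). The genes were taken by symbol from the platform annotation. All 9 were measured, by 39 of the 45220 features on the array, among 14871 named genes.

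The ICSS group comprised 4 pools of hippocampi from male Wistar rats aged 13 weeks that had self-administered 2500 trains of stimulation. The Sham group comprised 4 pools from rats of the same sex, strain and age that carried an electrode and stayed in the box for 40 min without current. Every pool held the hippocampi of 3 rats, taken on the electrode's side, after 7 days of recovery from surgery and training sessions of 20 min, so rats cannot be told apart within a pool. Both groups had undergone surgery, and tissue without an electrode was not analysed here. RNA of a pool carried Cy5 and that of a common brain reference Cy3 on the same array, and every value below is a log2 ratio of pool over reference. The characteristics name hippocampus, thalamus and cortex as the reference tissue, the design text names hippocampus alone, and the reference cancels in ICSS minus Sham.

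Tissue plasminogen activator and urokinase cut the circulating zymogen plasminogen into plasmin, a broad protease that acts on fibrin, on matrix proteins and on the zymogens of metalloproteinases. Serpins trap the activators as inactive complexes, and TIMPs bind the active site of metalloproteinases. In the hippocampus tissue plasminogen activator and Mmp9 are known for roles in late synaptic plasticity and in the remodelling of the matrix around synapses, and Timp1 and Plat have been described as genes induced by neuronal activity.

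Of 10 markers of hippocampal neurons, the labelled tissue, 9 lay above 0 on average in the Sham pools, and of 7 markers of thalamic neurons 0 did. Of the hippocampal markers 4 were higher and 6 lower in ICSS pools, with 0 called, and list means ran from 0.69 to 0.90 in ICSS pools, against 0.84 to 1.03 in Sham pools. The 4 with an unadjusted limma p below 0.05 (Zbtb20, C1ql2, C1ql3 and Fibcd1) were all lower, where 12.6% of all units met that mark in either direction. C1ql2 was lower by the most and without overlap (-0.58, SE 0.115, limma adjusted p = 0.123), a separation found in 7.80% of all units. The 4 higher markers were Neurod2, Bok, Neurod6 and Prox1, by 0.37, 0.14, 0.074 and 0.069. The part of these differences in the results below was not tested. Array medians lay between -0.0318 and 0.0162. Correlations between arrays over all features were 0.586 to 0.873, and Sham replicate 4 was the array least like the others, with 0.779 as its highest. Its spots also departed most often from all other arrays: 20 features were lower there than on each of the other 7 arrays by at least 1.5 and 28 were higher, against 62 and 58 over all arrays together. In tissue pools, fewer cells of a type and less RNA per cell cannot be told apart.

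Promoters of 7 of the 9 genes were matched by symbol in a RefSeq table of build GRCr8; Plat and Mmp9 are not among them. The 250 bases before the annotated start are shown for Timp1, which had the largest difference between groups, for its paralogs Timp2 and Timp3, and for Plaur, the single one of the 7 windows with a match to a searched motif. Timp1 lies at chrX:3771123-3771372 on the minus strand, Timp2 at chr10:104089215-104089464 on the minus strand, Timp3 at chr7:19459559-19459808 on the minus strand and Plaur at chr1:89181113-89181362 on the plus strand. Capitals mark a match to the AP-1 site TGACTCA on either strand; the other motif searched was the cAMP response element TGACGTCA.
Timp1: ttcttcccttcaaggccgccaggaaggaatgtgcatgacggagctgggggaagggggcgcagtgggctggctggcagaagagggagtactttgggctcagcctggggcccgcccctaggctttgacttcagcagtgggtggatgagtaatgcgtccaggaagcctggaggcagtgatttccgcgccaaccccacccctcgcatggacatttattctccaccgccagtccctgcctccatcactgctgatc
Timp2: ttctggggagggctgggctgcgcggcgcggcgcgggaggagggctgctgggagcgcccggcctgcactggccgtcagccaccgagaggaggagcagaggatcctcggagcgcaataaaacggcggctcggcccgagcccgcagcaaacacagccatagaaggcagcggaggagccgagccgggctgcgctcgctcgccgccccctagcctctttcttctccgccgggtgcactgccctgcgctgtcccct
Timp3: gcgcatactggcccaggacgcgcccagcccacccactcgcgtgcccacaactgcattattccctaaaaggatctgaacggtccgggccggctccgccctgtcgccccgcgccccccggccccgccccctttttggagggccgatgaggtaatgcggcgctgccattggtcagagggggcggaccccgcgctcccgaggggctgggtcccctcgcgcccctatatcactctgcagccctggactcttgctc
Plaur: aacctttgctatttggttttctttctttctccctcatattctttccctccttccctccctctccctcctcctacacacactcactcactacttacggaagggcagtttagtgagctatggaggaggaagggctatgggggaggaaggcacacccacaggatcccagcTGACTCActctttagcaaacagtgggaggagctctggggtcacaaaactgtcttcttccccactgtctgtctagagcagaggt

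The AP-1 match of Plaur began 83 bases before the start. Among all 33469 promoter windows of the same length, 4.05% held the AP-1 letters and 1.59% the cAMP response element, so 1 of 7 and 0 of 7 windows are counts too small to set against these shares. GC content was 61.2% in the Timp1 window, 72.0% in that of Timp2 and 69.6% in that of Timp3. A match is a description of the letters. Variants of either motif were not searched, so the absence of a match says nothing about binding inside a window or elsewhere.

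Self-stimulated pools had higher mean ratios than Sham pools for 8 of the 9 genes, with a median difference of 0.26 on the log2 scale, beside 0.0069 over all named genes, of which 52.6% were higher. None of the 9 passed limma's test at an adjusted p of 0.05, a threshold that 0.0461% of the 34738 genes and unnamed probes passed in either direction. At an unadjusted p below 0.05 there were 4 genes, Timp1, Plat, Timp3 and Mmp9, all higher in ICSS pools, while 12.6% of all units met that mark, 6.61% of all units being higher. All ICSS pools lay above all Sham pools for Plat alone, 1 of 9, and 7.80% of all units were separated in this way in either direction, 4.13% with ICSS above. By feature, 0 of 39 passed, against 0.117% of all features, and 37 of 39 were higher. An unadjusted p below 0.05 was found for 25 of 39 features, all higher (11 of Timp1, 7 of Plat, 6 of Mmp9 and 1 of Timp3), against 13.3% of all features, or 7.23% higher. The groups did not overlap for 6 of 39 (4 of Plat, 1 of Mmp9 and 1 of Timp1), against 8.27% of all features, or 4.50% with ICSS above. Features of 1 gene are not independent of each other. With 9 genes, several of them known beforehand from these data, these shares are descriptions only.

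**Figure D1:**
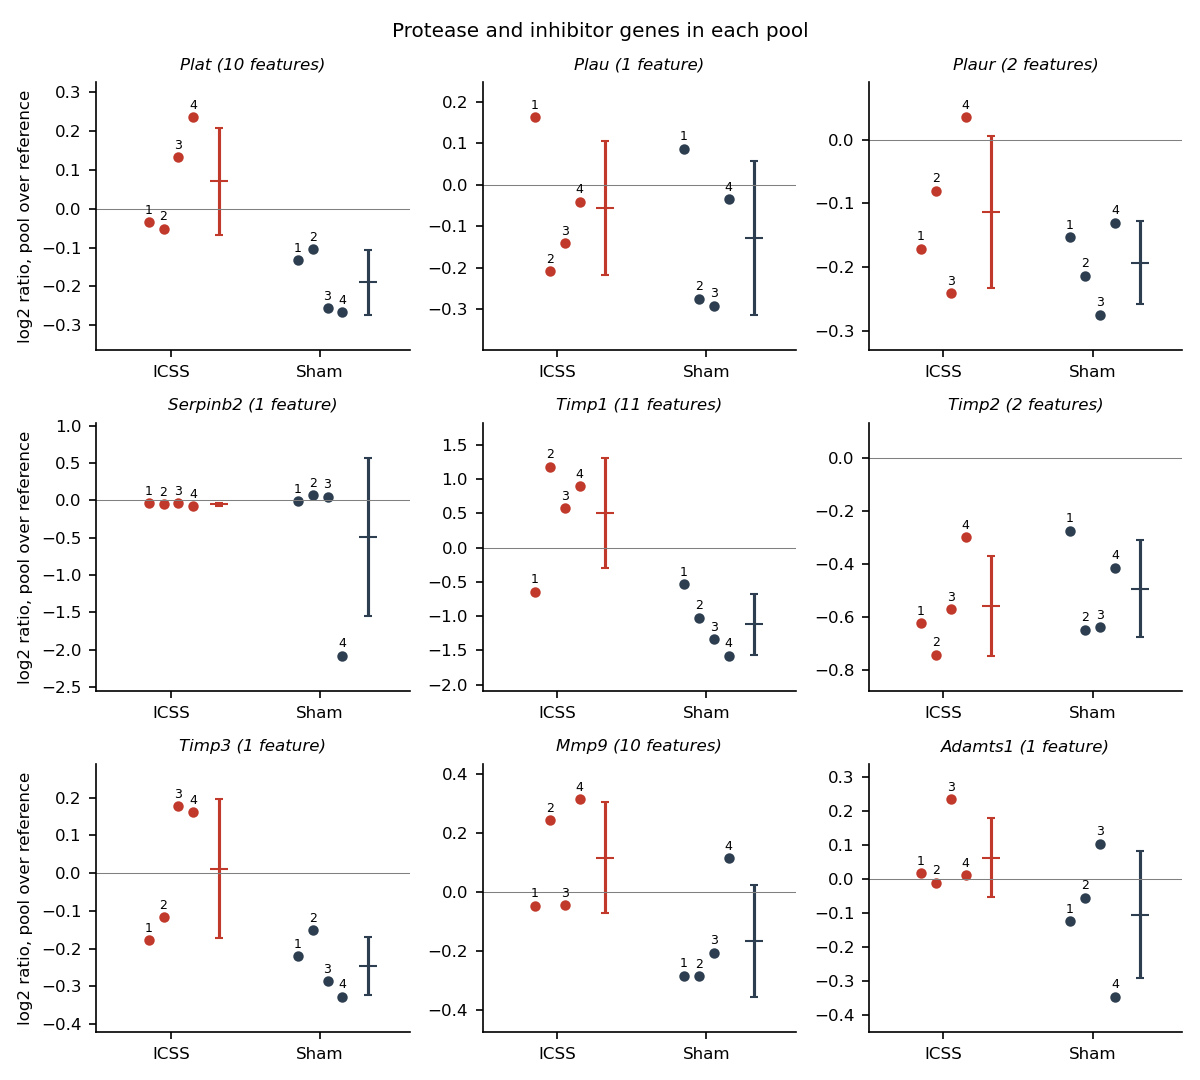
Each panel shows 1 gene; points are the log2 ratios of single pools over the reference (mean over the gene's features), numbered by replicate, with ICSS on the left and Sham on the right, and bars give mean and SD (n = 4 each). Plat separates the groups, Timp1 has the widest span with ICSS replicate 1 at -0.64 among the Sham pools, and Serpinb2 has a single Sham pool at -2.08.

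Plat, the gene of tissue plasminogen activator, stood at -0.035, -0.052, 0.13 and 0.24 in ICSS replicates 1 to 4, against -0.13, -0.10, -0.26 and -0.27 in Sham replicates 1 to 4. The groups did not overlap, although ICSS replicates 1 and 2 lay close to the nearest Sham pool. The mean was 0.070 ± 0.138 over ICSS pools, against -0.19 ± 0.0835 over Sham pools (SD, n = 4 each), a difference of 0.26 (SE 0.0784, 95% interval 0.085 to 0.43), or 1.20-fold. The limma adjusted p was 0.235. The exact permutation test of Plat alone gave p = 0.0286, two-sided and unadjusted, the smallest that 70 assignments allow. All 10 Plat features were higher in ICSS pools, by 0.10 to 0.70.

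The upper end of that range came from 1 spot, at -1.66 in Sham replicate 3, where the other 9 Plat features lay between -0.345 and 0.020. Without this spot, a choice made after seeing the data, the difference was 0.21 (SE 0.0787, limma adjusted p = 0.319) and the groups still did not overlap.

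Plau, which encodes the urokinase-type activator, was at 0.16, -0.21, -0.14 and -0.040 in ICSS replicates 1 to 4 and at 0.087, -0.27, -0.29 and -0.035 in Sham replicates 1 to 4. Both groups ran over nearly the same range, with replicate 1 the highest pool of each. The difference was 0.072 (SE 0.107, 95% interval -0.17 to 0.31, limma adjusted p = 0.811), and it was -0.0013 without ICSS replicate 1. Plaur, whose product holds urokinase at the cell surface, was at -0.17, -0.080, -0.24 and 0.035 in ICSS pools, against -0.15, -0.21, -0.28 and -0.13 in Sham pools. The groups overlapped and the difference was 0.079 (SE 0.0706, limma adjusted p = 0.671), with 0.029 without ICSS replicate 4 and 0.12 without ICSS replicate 3. Its 2 features stem from different accessions and gave 0.056 and 0.10. The interval of Plau includes the size measured for Plat, and differences between these genes were not tested.

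Serpinb2, the gene of plasminogen activator inhibitor type 2, was measured by 1 feature and stood at -0.043, -0.053, -0.040 and -0.083 in ICSS pools, against -0.014, 0.068, 0.048 and -2.08 in Sham replicates 1 to 4. The other 7 pools lay near 0 and Sham replicate 4 lay far below, and apart from that pool every ICSS value was lower than every Sham value. The difference of 0.44 (SE 0.417, limma adjusted p = 0.689) therefore rests on 1 array: without Sham replicate 4 it was -0.0885 (SE 0.0556, limma adjusted p = 0.622). The 1 member feature among the 20 that were low by at least 1.5 on Sham replicate 4 alone is this one.

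Among the proteases, Mmp9, which encodes gelatinase B, was at -0.046, 0.24, -0.043 and 0.32 in ICSS replicates 1 to 4, against -0.28, -0.29, -0.20 and 0.12 in Sham replicates 1 to 4. Every ICSS pool exceeded Sham replicates 1 to 3, and Sham replicate 4 lay above 2 of the ICSS pools. The difference was 0.28 (SE 0.115, 95% interval 0.026 to 0.54), or 1.22-fold, with a limma adjusted p of 0.355. It was 0.38 without Sham replicate 4 (limma adjusted p = 0.272). All 10 Mmp9 features were higher in ICSS pools, by 0.20 to 0.36, and the spread among them within a pool had a median SD of 0.0986.

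Adamts1, a protease that cleaves aggrecan and versican, was at 0.017, -0.010, 0.24 and 0.011 in ICSS pools and at -0.13, -0.055, 0.10 and -0.35 in Sham pools. Replicate 3 was the highest of each group, and the groups overlapped. The difference was 0.17 (SE 0.0978, 95% interval -0.049 to 0.39, limma adjusted p = 0.505), and it was 0.089 without Sham replicate 4.

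Timp1, which encodes a secreted inhibitor of Mmp9 and other metalloproteinases, was at -0.64, 1.18, 0.58 and 0.90 in ICSS replicates 1 to 4, against -0.54, -1.02, -1.34 and -1.58 in Sham replicates 1 to 4. ICSS replicates 2, 3 and 4 lay above the reference and above every Sham pool, while ICSS replicate 1 lay below Sham replicate 1. The ICSS mean was 0.51 ± 0.804 and the Sham mean -1.12 ± 0.450 (SD, n = 4 each). The difference of 1.62 (SE 0.363, 95% interval 0.81 to 2.43), or 3.08-fold, ranked 3 by size among the 14871 named genes and did not pass the test (limma adjusted p = 0.153). The exact permutation test of Timp1 alone gave an unadjusted p of 0.0571, two-sided.

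The result turned on ICSS replicate 1. Without that pool the difference was 2.01 (SE 0.238) and Timp1 was called, with a limma adjusted p of 0.0121, in a fit that called 0.440% of all units. Without ICSS replicate 2 the difference was 1.40, the lowest with any pool left out. Timp1 was not alone in this: in 54 units ICSS replicates 2, 3 and 4 exceeded every Sham pool by at least 0.5, and in 20 of them, 8 being named genes, ICSS replicate 1 did not exceed the highest Sham pool. With ICSS replicate 2, 3 or 4 in its place, the counts were 0 of 6, 1 of 7 and 1 of 8. These counts were made after the values were seen.

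Of the 11 Timp1 features, 10 share an accession, and in every pool they lay close together, with an SD between them of 0.0394 to 0.0707. Their differences spanned 1.68 to 1.81, and their mean was 1.75 (SE 0.388, limma adjusted p = 0.147 with features averaged per accession). The remaining feature, designed to another accession of the gene, gave 0.33 (SE 0.105, limma adjusted p = 0.251 in the same fit), with -0.21, 0.15, -0.11 and 0.0028 in ICSS pools and -0.10, -0.52, -0.44 and -0.43 in Sham pools. It ordered ICSS replicate 1 below Sham replicate 1 as well, over a narrower range. The oligonucleotides themselves were not used here, so it is unknown whether the 10 features hold the same one, and their agreement shows the precision of the spots and not of the pools.

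**Figure D2:**
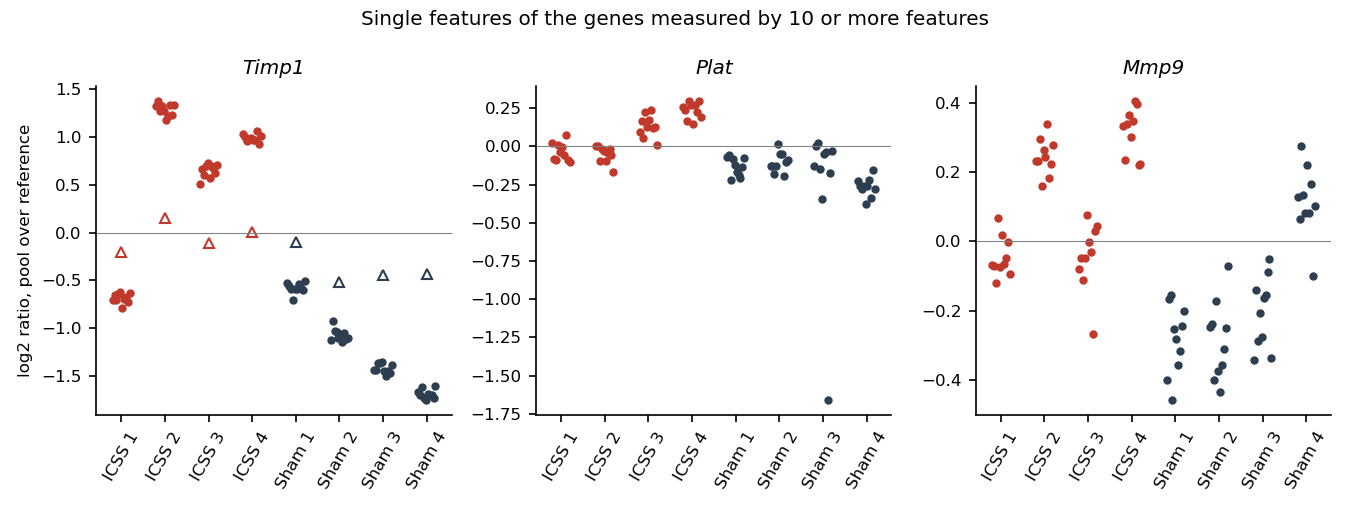
Each point is the log2 ratio of 1 feature in 1 pool over the reference, for Timp1 (11 features), Plat (10) and Mmp9 (10), with ICSS pools in red on the left and Sham pools in dark blue on the right; the open triangle is the Timp1 feature of the other accession. The 10 Timp1 features of 1 accession lie close together in every pool and the open triangle lies apart from them; features of Plat and Mmp9 overlap between several pools, and 1 Plat spot stands at -1.66 in Sham replicate 3.

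The other TIMP genes gave smaller differences. Timp3, whose product binds to the matrix, was at -0.18, -0.12, 0.18 and 0.16 in ICSS replicates 1 to 4 and at -0.22, -0.15, -0.29 and -0.33 in Sham replicates 1 to 4. Its groups met at ICSS replicate 1, which lay below Sham replicate 2, and the remaining ICSS pools exceeded all Sham pools. The difference was 0.26 (SE 0.0909, 95% interval 0.055 to 0.46, limma adjusted p = 0.298).

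Timp2, a broadly expressed inhibitor that also takes part in the activation of pro-Mmp2, lay below the reference in all 8 pools. Its values were -0.63, -0.74, -0.57 and -0.30 in ICSS pools and -0.27, -0.65, -0.64 and -0.41 in Sham pools, so each group spanned most of the other's range. The difference was -0.065 (SE 0.113, 95% interval -0.32 to 0.19, limma adjusted p = 0.841), and it was 0.0081 without Sham replicate 1. Both features were lower on average, with differences of -0.031 and -0.10. The upper end of this interval lies below 0.81, the lower end of that of Timp1; the difference between the genes itself was not tested.

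**Figure D3:**
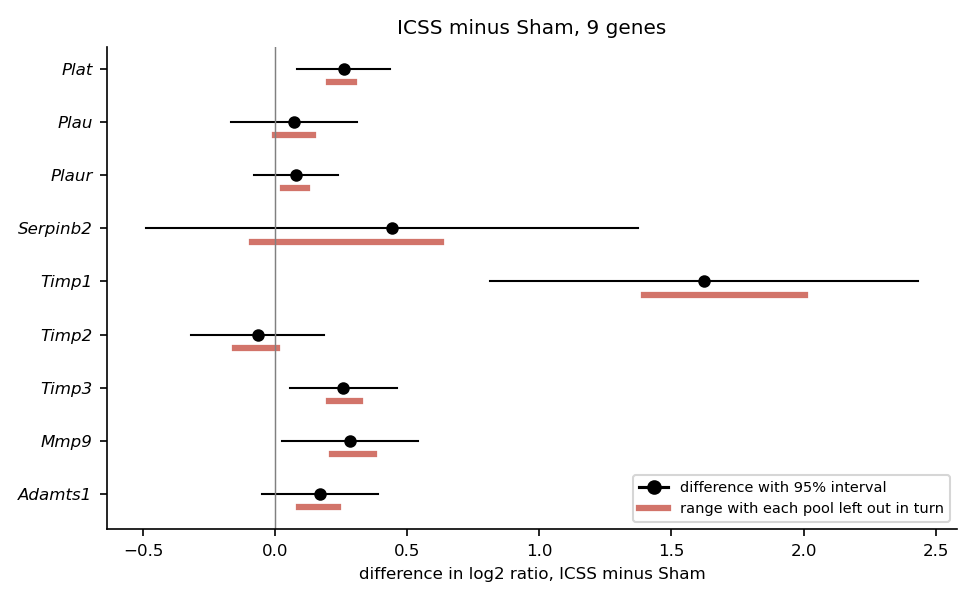
Black points and lines give the difference in log2 ratio, ICSS minus Sham, with its 95% interval for each of the 9 genes (n = 4 pools each), and red bars the range of that difference when each pool is left out in turn. The intervals of Plat, Timp1, Timp3 and Mmp9 exclude 0 before adjustment over all units, and the red bars of Plau, Serpinb2 and Timp2 cross 0.

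Marker genes of other cell types were read in the same pools. Astrocyte markers were higher on average in ICSS pools for 6 of 8 genes, with 0 called; the list mean per pool ran from -0.10 to 0.22 in ICSS pools, against -0.29 to 0.022 in Sham pools. For the astrocyte, fibroblast and leukocyte lists the first 2 genes are named, with the members that differed in the other direction. Gfap, the intermediate filament gene of astrocytes, differed by 0.35 (SE 0.209) and Aqp4, their water channel gene, by 0.28 (SE 0.122). In the other direction, Slc1a3, a glutamate transporter gene, differed by -0.21 (SE 0.0761, limma adjusted p = 0.313) and Aldoc by -0.0010. The astrocyte marker Gjb6 differed by 0.28 (SE 0.0749, limma adjusted p = 0.194). Its groups did not overlap, which held for 7.80% of all units. Of 10 markers of pericytes, leptomeninges and fibroblasts, cells that also express Timp1 and Timp3, 8 were higher and 0 were called; list means ran from -0.81 to -0.13 in ICSS pools, against -0.82 to -0.45 in Sham pools, and the collagen genes Col1a1 and Col1a2 differed by 0.20 and 0.26, against -0.047 for Dcn and -0.068 for Rgs5. The means of this list were -0.68, -0.81, -0.13 and -0.25 in ICSS replicates 1 to 4, against -0.45, -0.64, -0.77 and -0.82 in Sham replicates 1 to 4. They rank the Sham pools as Timp1 does, and so do the astrocyte, choroid plexus, microglial and leukocyte means. None of the marker lists read here ranks the ICSS pools as Timp1 does. Of the 4 ICSS pools, replicate 2 had the lowest fibroblast and astrocyte means and replicate 1 the next lowest. Such orders of 4 pools are descriptions and were not tested. The astrocyte, choroid plexus and leukocyte means rank the ICSS pools, though not the Sham pools, as Plat does. In Timp3, as in the fibroblast means, ICSS replicates 3 and 4 lay above ICSS replicates 1 and 2. Endothelial list means ran from -0.18 to -0.017 in ICSS pools, against -0.15 to -0.097 in Sham pools, with 5 of 8 genes higher, 0 called, and Pecam1 and Cldn5 at differences of 0.18 and -0.047. Leukocytes express Mmp9, Plaur and Serpinb2; their list means ran from -0.062 to 0.13 in ICSS pools, against -0.12 to 0.13 in Sham pools, with 7 of 10 genes higher, 0 called, and S100a8 and S100a9 at differences of 0.058 and 0.10, against -0.066 for Ptprc, -0.15 for Cd3e and -0.095 for Ccr2. Microglial list means ran from -0.37 to 0.11 in ICSS pools, against -0.49 to 0.37 in Sham pools, with 3 of 9 genes higher and 0 called, and those of erythrocyte genes from -0.77 to -0.31 in ICSS pools, against -0.54 to -0.19 in Sham pools, with 0 of 4 higher. The part of cell make-up in the differences above was not tested.

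For members that varied by an SD of at least 0.5 over the 8 pools, the nearest profiles among all other named genes were sought, by the root mean square difference after each gene was centred on its own mean. For Timp1 (SD 1.06) they were Inhba, the gene of the activin beta A subunit, at 0.285, Ptgs2, the gene of inducible cyclooxygenase, at 0.392, and Gadd45b, a stress and DNA repair gene, at 0.432. Inhba stood at -0.15, 1.53, 1.29 and 1.40 in ICSS replicates 1 to 4 and between -0.57 and -0.18 in Sham pools. Ptgs2 stood at 1.03, 1.84, 1.71 and 1.87 in ICSS pools, against 0.24 to 0.56 in Sham pools. Gadd45b stood at 0.062, 1.24, 1.31 and 1.49 in ICSS pools, against -0.10 to 0.054 in Sham pools. None of these neighbours was called, with a limma adjusted p of 0.153 for Inhba, 0.0613 for Ptgs2 and 0.171 for Gadd45b. ICSS replicate 1 was the lowest ICSS pool for all 4 genes, which the choice of genes by nearness to Timp1 favours. Among the Sham pools the SD was 0.450 for Timp1, beside 0.160 for Inhba, 0.160 for Ptgs2 and 0.0808 for Gadd45b.

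For Serpinb2 (SD 0.733) the nearest genes were Rpusd3, Mlana and Dagla, at 0.0852, 0.114 and 0.168. Each is measured by 1 feature and stood in Sham replicate 4 at -1.64, -1.79 and -1.89, while in the other pools Rpusd3 lay between 0.20 and 0.52. What the 4 profiles share is the low value on that array.

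**Figure D4:**
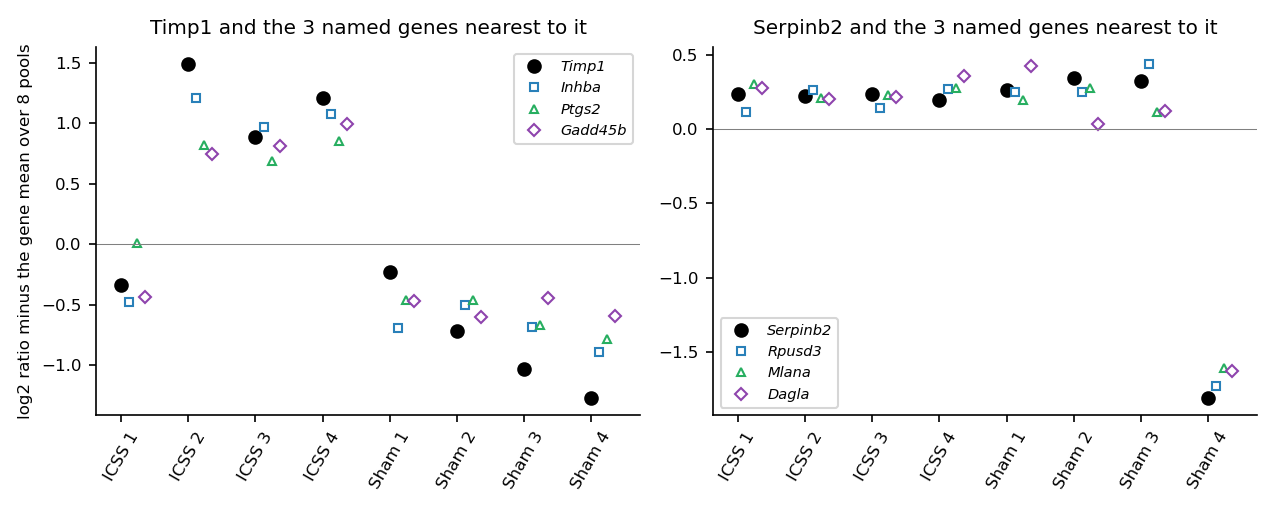
Log2 ratios minus each gene's own mean over the 8 pools are plotted by pool, ICSS on the left and Sham on the right, for Timp1 (left panel) and Serpinb2 (right panel) in black and their 3 nearest named genes in open symbols. ICSS replicate 1 lies apart from the other ICSS pools in the Timp1 panel, and Sham replicate 4 lies apart in the Serpinb2 panel.

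The wider system was described with 7 lists, 106 of whose 122 genes were measured. Of the 106, 54 were higher and 52 lower in ICSS pools, with a median difference of 0.0033, beside 0.0069 over all named genes; 1 was called higher and 0 were called lower, beside 0.0461% of all units in either direction. An unadjusted p below 0.05 was found for 16 of 106 (12.6% of all units), and the groups did not overlap for 11 of 106, 6 higher and 5 lower (7.80% of all units). Partners of the plasminogen system gave 6 higher and 10 lower of 16 measured, with a median of -0.037 and 0 called. S100a10, which with annexin A2 forms a plasminogen receptor, differed by 0.20 (SE 0.0759) and Anxa2 itself by 0.59 (SE 0.329), with ICSS pools between -1.02 and 0.24 and Sham pools between -1.46 and -0.13. Lrp1, the clearance receptor of protease and serpin complexes, differed by -0.12 (SE 0.0542), the 1 of these 16 without overlap. Serpina5, the protein C inhibitor gene, differed by -0.26 (SE 0.121). Limma adjusted p lay between 0.324 and 0.495 for these 4.

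In the list of fibrin, thrombin and protease-activated receptor genes, 11 of 15 were higher and 0 were called, with a median of 0.079. Thbd, the thrombomodulin gene, stood at -0.75, -0.77, -0.45 and -0.76 in ICSS pools and at -0.96, -1.07, -1.06 and -1.07 in Sham pools, without overlap, and the difference was 0.36 (SE 0.0801, limma adjusted p = 0.153). F13a1, the gene of the fibrin-crosslinking factor XIII A subunit, differed by 0.39 (SE 0.125), also without overlap. Such separation was found for 2 of 15 genes, against 7.80% of all units. F3, the tissue factor gene, differed by 0.33 (SE 0.128) and Pros1, the protein S gene, by 0.12 (SE 0.0650). Limma adjusted p ran from 0.262 to 0.493 for F13a1, F3 and Pros1. Other serpins gave 9 of 15 higher, a median of 0.034 and 0 called. Serpinf1, which encodes the neurotrophic serpin PEDF, differed by 0.23 (SE 0.0899), Serpinh1, a collagen chaperone gene, by 0.31 (SE 0.129), Serpina3c by 0.14 and Serpinb6a by -0.083, with limma adjusted p from 0.341 to 0.583.

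Of 17 other matrix metalloproteinase genes 6 were higher and 11 lower, with a median of -0.047 and 0 called. Mmp23 stood at 0.86, 0.61, 0.66 and 0.90 in ICSS pools and at 1.22, 1.11, 0.94 and 0.97 in Sham pools, without overlap, and the difference was -0.30 (SE 0.0881, limma adjusted p = 0.223). Mmp14, a membrane-type protease that activates pro-Mmp2, differed by -0.37 (SE 0.201), Mmp2, the gelatinase A gene, by -0.21 (SE 0.191) and Mmp10 by -0.087 (SE 0.0620), with limma adjusted p from 0.477 to 0.672. Mmp14 and Mmp2 were highest of all pools in Sham replicate 1, at 0.65 and 0.45. Choroid plexus markers, 6 of 10 higher in ICSS pools and 0 called, also had their highest list mean there, at 0.78. Their list means lay between -0.73 and 0.055 in ICSS pools and between -1.18 and 0.78 in Sham pools. Microglial and leukocyte list means were highest in Sham replicate 1 as well, at 0.37 and 0.13. The part of such tissue or cells was not tested.

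Among 15 other ADAMTS and ADAM genes measured, 8 were higher and 7 lower, with a median of 0.0034 and 0 called. Adamts12 lay from -0.15 to 0.052 in ICSS pools, against -0.28 to -0.20 in Sham pools; the difference was 0.21 (SE 0.0596, limma adjusted p = 0.214), and Adam10, the main alpha-secretase gene, differed by 0.15 (SE 0.0827), Adamts14 by 0.14 and Adam15 by -0.10. In the list of other metalloproteinase inhibitors 5 of 7 were higher, with a median of 0.11 and 0 called. Reck, a membrane-anchored inhibitor, stood from -0.26 to -0.12 in ICSS pools, against -0.057 to 0.19 in Sham pools; the difference was -0.20 (SE 0.0678, limma adjusted p = 0.281). The testican genes Spock2 and Spock3 differed by -0.22 and 0.155, and Pcolce, which enhances procollagen processing and so does not do what the list is named for, by 0.32 (SE 0.224).

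In the list of matrix and cell surface substrates 9 of 21 genes were higher, with a median of -0.021, and 1 was called. Fn1, the fibronectin gene and a substrate of plasmin, rose 1.51-fold, with 0.19, 0.093, 0.095 and 0.17 in ICSS pools against -0.43, -0.64, -0.38 and -0.37 in Sham pools (limma adjusted p = 0.0283), and its call was lost without ICSS replicates 2, 3 or 4 or Sham replicates 1 or 3. Acan, the gene of the perineuronal net proteoglycan aggrecan and a substrate of Adamts1, stood from 0.25 to 0.36 in ICSS pools, against -0.10 to 0.095 in Sham pools; the difference was 0.31 (SE 0.0604, limma adjusted p = 0.122). Hapln4, a link protein gene of the same nets, differed by 0.20 (SE 0.0625). Agrn, which encodes agrin, a substrate of neurotrypsin and Mmp3, stood from -1.06 to -0.82 in ICSS pools, against -0.75 to -0.25 in Sham pools; the difference was -0.43 (SE 0.103, limma adjusted p = 0.162). In this list the groups did not overlap for 5 of 21 genes, 3 higher and 2 lower, against 7.80% of all units; they are these 4 and Tnr, the tenascin R gene, with a difference of -0.15 (SE 0.0536, limma adjusted p = 0.300).

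**Figure D5:**
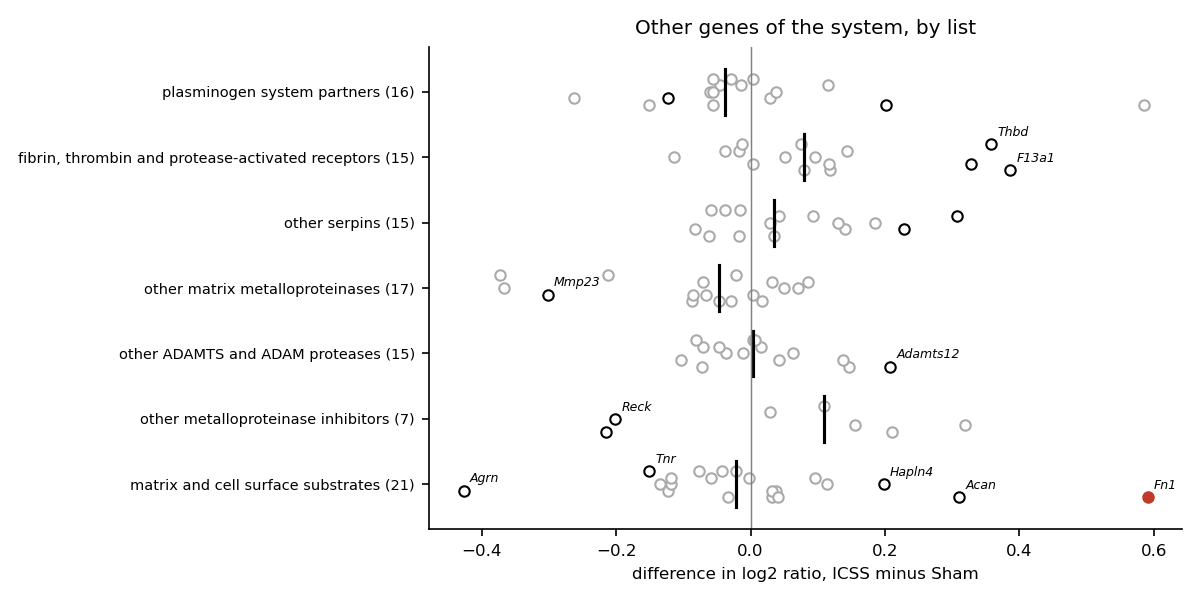
Each circle is the difference in log2 ratio, ICSS minus Sham, of 1 gene of a list (number measured in parentheses), and black bars are list medians. Filled red marks a limma adjusted p below 0.05 (Fn1), black outlines an unadjusted p below 0.05 and grey outlines the rest; genes with an unadjusted p below 0.02 are named.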

How the data were processed

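Gene expression was measured on 8 arrays of 2 colours, 4 ICSS and 4 Sham pools, each set against 1 common reference in the other dye, per the labels. The deposited values are log2 ratios, 1 for each feature of an array, without gaps. The submitters' processing notes name limma, with no version; how background and normalization were handled, and whether features were filtered, is not stated. Base 2 was assumed, the scale on which limma works. Dim spots could not be filtered, since brightness was not used here.

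Symbols came from the platform annotation and were updated through Entrez identifiers (25306 of 25353 features with 1 symbol matched; 48 features had several symbols and 19819 had none listed). Features were averaged per gene, giving 14871 genes and 19867 unnamed probes, and ICSS was compared with Sham in a two-sided test without covariates (lmFit and eBayes of limma 3.58.1, under R 4.3.3). P-values were adjusted by Benjamini-Hochberg over all 34738 units. Single features were fitted separately over all 45220. SE and 95% intervals are moderated ones from limma. The procedure was tested on simulated data. Named genes are the 9 members, up to 4 genes of smallest p per list, the 3 nearest genes of members with an SD of at least 0.5, and leading markers of cell types. Markers that differed against these, Gjb6, the named hippocampal markers and Tnr were chosen after their values were seen. The members and lists were chosen with earlier results of these data known. Same-numbered pools were checked for shared deviations. The labels call the pools biological replicates, and their number limits the precision.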

Additional observations from a re-analysis of the deposited data

Results flagged for a closer look

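In Serpinb2, Sham replicate 4 stood at -2.08, far from the other Sham pools at -0.014 to 0.068; its gap was 0.962 of the group's range. In Adamts1, ICSS replicate 3 stood at 0.24, above the other ICSS pools at -0.010 to 0.017, with a gap of 0.888 of the range. These are 2 of 18 groups of 4 pools examined, and chance marks about 1 in 20.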

How the results depend on the processing

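The member genes called numbered 0 with each array centred on its median, with quantile normalization, with arrays scaled to an equal spread, with array weights, with robust moderation, with the median over features, with named genes only, with features as units and with features averaged per accession, an alternative added after seeing the data. With pools left out in turn the count ran from 0 to 1, the 1 being Timp1 without ICSS replicate 1. Called member features ran from 0 to 10, all 10 of Timp1 and without the same pool. Leaving out that pool, 0.440% of all units and 0.635% of all features were called. Genes whose groups do not overlap numbered 1 to 3 with pools left out, and fewer pools make separation easier: over all units it was 10.2% to 13.7%, against 7.80% with all pools. Called genes of the pathway lists ran from 0 to 1. Directions turned for Plau without ICSS replicate 1 (-0.0013, with 0.14 as the highest value over pools left out), for Timp2 without Sham replicate 1 (0.0081, lowest -0.15) and for Serpinb2 without Sham replicate 4 (-0.0885, highest 0.63); the cause was not tested. Over all features, same-numbered pools did not deviate together (correlations from -0.0652 to 0.0618, and 0 of 4 ICSS pools closest to the Sham pool of their number). Correlations over all features cannot exclude a shared deviation in single genes. With the replicate block 0 members were called, and 0 of all units against 16 without it, Fn1 among those lost. The SE rose with the block for Plat, Timp1 and Timp3 and fell for the other members. An unadjusted limma p below 0.05 was found for 5 members with the block, against 4 without it. The share of all units below that mark was not counted with the block, so these counts are descriptions only. Permuted exactly, Plat alone had an unadjusted p below 0.05. Array number and unknown spot brightness limit all values.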
